A study of Mus musculus with 6 samples.

Results

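The genes examined here were 10 members of the BCL2 family, found by their symbols in the deposited table of 15415 genes. This family decides whether a cell survives or dies by apoptosis at the mitochondrion. Survival members such as BCL-XL, MCL1, BCL2 and A1 hold back BAX and BAK, the pore formers of the outer mitochondrial membrane, and BH3-only proteins such as BIM, PUMA and NOXA release them. Macrophages are known to rely on MCL1, BCL-XL and A1 after microbial stimulation, when NF-κB activity raises some of the survival genes. The survival members were *Bcl2l1* (BCL-XL), *Bcl2a1b* and *Bcl2a1d* (copies of A1), *Mcl1* and *Bcl2*, and the death members were the BH3-only genes *Bcl2l11* (BIM), *Bbc3* (PUMA) and *Pmaip1* (NOXA) and the pore formers *Bax* and *Bak1*. All 10 were in the table, and all 10 had a mean of at least 1 FPKM in one group, which was the condition for the test across genes. FPKM is the number of reads on a gene scaled by its length and by the reads of the library, so that levels can be set side by side between genes.

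RNA was sequenced from peritoneal macrophages (PEMs) of 3 LysM-Cre; *Tim-4* fl/fl libraries (knockout) and 3 *Tim-4* fl/fl libraries (control). In the study's methods the mice are male C57BL/6J of 6 to 8 weeks, and PEMs are drawn from the peritoneal cavity some days after starch is injected. LPS, a bacterial cell wall product that activates macrophages, is the labelled treatment of all 6 libraries, whereas the methods do not say whether the sequenced PEMs received it. LysM-Cre acts in myeloid cells in general, and the control mice carry the floxed allele without Cre, so the deletion and the Cre allele cannot be told apart. Titles, and not the genotype entries, which have knockout and control in reverse, set the groups.

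*Timd4*, the gene of Tim-4, measured 0.333, 0.394 and 0.246 FPKM in knockout libraries 1 to 3 and 19.5, 12.05 and 1.19 FPKM in control libraries 1 to 3. The knockout libraries were thus the low ones, as the titles say, while control library 3 held little *Timd4*. *Lyz2*, whose locus carries Cre in the knockout mice, was at 4656 FPKM in knockout library 2 against 41.4 and 106 FPKM in the other knockout libraries, and the controls held 7090, 7171 and 8482 FPKM. Between 36170767 and 42217558 reads per library lay on the listed genes. The 6 macrophage markers summed to between 2563 and 2840 FPKM in the knockout libraries and to between 2188 and 2659 FPKM in the control libraries, and none of them was at 0. *Cd68*, the most abundant of them, was higher in every knockout library than in every control (1642 ± 61.1 against 1091 ± 282 FPKM), whereas *Csf1r* (105 ± 33.3 against 168 ± 14.9 FPKM) and *Cd14* (338 ± 72.2 against 556 ± 73.2 FPKM) were lower in every knockout library (SD, n = 3 each). None of the 6 passed in limma, and these 3 had an unadjusted p under 0.05. Over all 9030 genes tested, 660 passed an adjusted p of 0.05 in limma, and this number fell to 8 without control library 2 and rose to 1278 without control library 3. Nothing in the labels says whether the libraries of a group came from separate mice, so p-values measure only the spread between these libraries.

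Levels of the 10 members spanned a wide range. The plot of levels by library shows A1 at the top and *Bcl2* at the bottom.

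**Figure D1:**
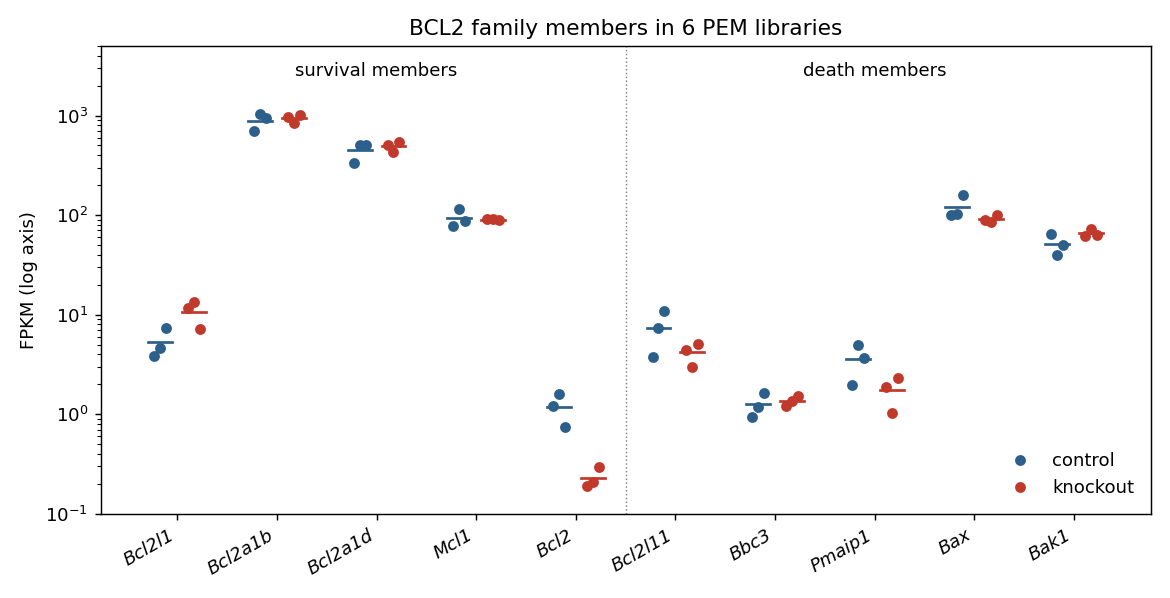
FPKM (log axis) of the 10 BCL2 family members in the 3 control libraries (blue) and the 3 knockout libraries (red), with survival members on the left and death members on the right. Each point is 1 library and each short line is a group mean. *Bcl2a1b* has the highest mean of all members in both groups and *Bcl2* is the only survival member with every knockout point below every control point.

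Averaged over the 6 libraries on the FPKM scale, the order of levels was *Bcl2a1b* (914), *Bcl2a1d* (469), *Bax* (106), *Mcl1* (91.4), *Bak1* (58.7), *Bcl2l1* (7.95), *Bcl2l11* (5.76), *Pmaip1* (2.64), *Bbc3* (1.31) and *Bcl2* (0.707). *Bcl2a1b* took place 56 among the 15415 listed genes, and *Bcl2* took place 9275. The ranges of *Bax* and *Mcl1* over the libraries overlapped, and so did those of each pair of neighbours from *Bcl2l1* down to *Bcl2*. The ranges of the other neighbours in this order did not overlap. The order depended on the group for *Bcl2l1* and *Bcl2l11*, with means of 10.7 and 4.17 FPKM in the knockout libraries and of 5.26 and 7.35 FPKM in the controls.

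In the fit across all genes (limma on log2(FPKM + 1), adjusted over the 9030 genes tested), 1 of the 10 members passed the threshold of 0.05. This was *Bcl2*, which was lower in the knockout libraries. Of all genes tested, 4.74% were called lower and 2.57% were called higher. The 9 other members did not pass, and none was called higher in limma or in voom on the recovered reads. At an unadjusted p under 0.05 there were 3 members, *Bcl2l1* upward and *Bcl2* and *Pmaip1* downward, beside 27.6% of all genes tested, 9.93% upward and 17.7% downward. The groups did not overlap in 2 of the 10 members, *Bcl2* and *Bax*, both lower in the knockout libraries, beside 34.1% of all genes tested with groups that did not overlap, 23% with the knockout libraries lower. Beside these shares of all genes, none of the counts sets the members apart. The interval plot sets the members side by side.

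**Figure D2:**
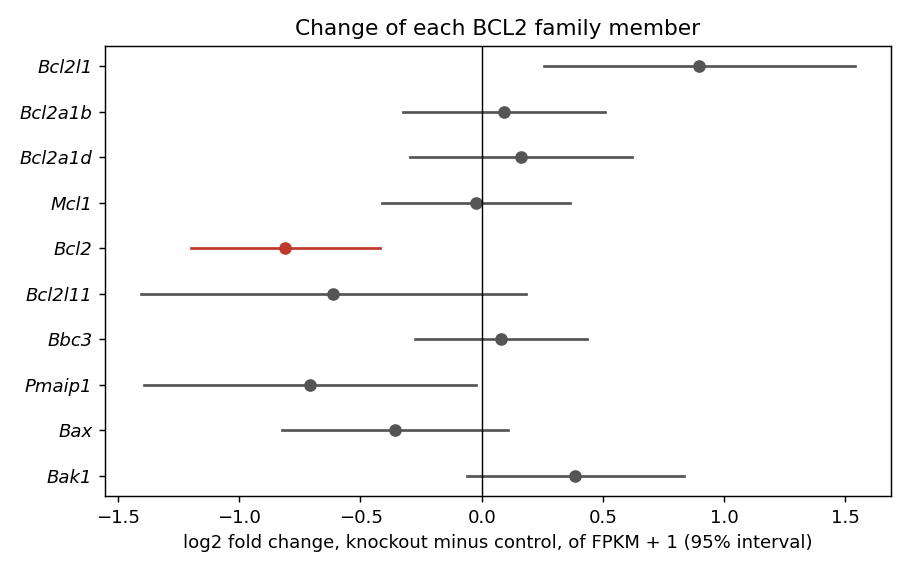
Difference between the knockout and the control group for each of the 10 members, as a log2 fold change of FPKM + 1 (point) with its 95% confidence interval from limma (bar). *Bcl2*, in red, is the only member with an adjusted p under 0.05. The unadjusted intervals of *Bcl2l1* and *Pmaip1* also leave out 0.

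*Bcl2*, the founding survival member, on which lymphocytes are known to depend, had the lowest level of the 10 members. It measured 0.188, 0.206 and 0.296 FPKM in knockout libraries 1 to 3 and 1.21, 1.60 and 0.745 FPKM in control libraries 1 to 3. These values stood for 58, 64 and 89 reads in the knockout libraries and for 350, 458 and 198 reads in the controls. All knockout libraries lay below all controls. The knockout mean was 0.230 ± 0.0578 FPKM and the control mean 1.18 ± 0.428 FPKM (SD, n = 3 each). On the log2(FPKM + 1) scale the difference was -0.81 (standard error 0.17, adjusted p = 0.0337 from limma), a scale that makes the change of so low a gene smaller than it is. In voom, which works on reads, the log2 fold change was -2.16 (adjusted p = 0.0368). *Bcl2* met the condition for testing only through the control group, whose mean was above 1 FPKM, so a lower value in the knockout group was in part set by that condition. With no filter on low values it still passed (adjusted p = 0.0481 from limma).

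The call on *Bcl2* did not rest on all libraries alike. Each of 5 libraries could not be left out without losing it, with adjusted p from limma of 0.133, 0.147 and 0.0634 without knockout libraries 1, 2 and 3 and of 0.0544 and 0.128 without control libraries 1 and 2. Without control library 3 it was 0.00659. The log2 fold change stayed between -0.96 and -0.67 in these 6 fits. The plot of adjusted p by left-out library sets *Bcl2* beside 4 other members.

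**Figure D3:**
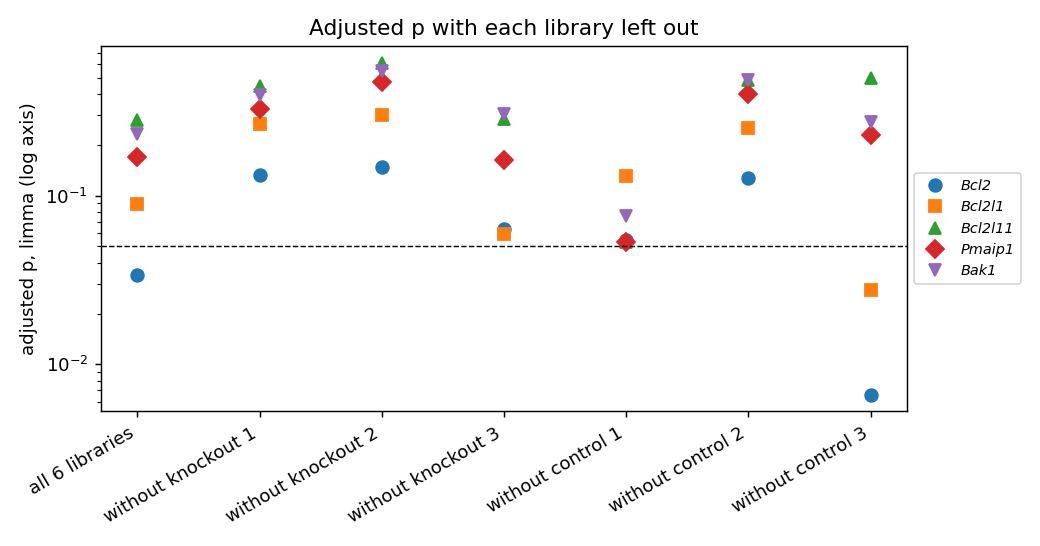
Adjusted p from limma (log axis) for *Bcl2*, *Bcl2l1*, *Bcl2l11*, *Pmaip1* and *Bak1* with all 6 libraries and with each library left out. The dashed line is the threshold of 0.05. *Bcl2* is under it with all libraries and without control library 3, and *Bcl2l1* only without control library 3.

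Summed markers of B cells, mast cells, large peritoneal macrophages, T cells and neutrophils were, like *Bcl2*, lower in every knockout library than in every control. The 4 B cell markers used (*Cd79a*, *Cd79b*, *Ms4a1* and *Pax5*) summed to between 2.34 and 4.71 FPKM in the knockout libraries and to between 24.6 and 99.995 FPKM in the controls, and all 4 were called lower. The 5 mast cell markers summed to between 1.89 and 2.25 FPKM against 37.5 to 49.0 FPKM, and all 5 were called lower. The 6 markers of large peritoneal macrophages, which include *Timd4* itself, summed to between 8.55 and 18.6 FPKM against 67.7 to 141.5 FPKM, with 3 of the 5 tested called lower. The 5 listed T cell markers summed to between 1.07 and 1.72 FPKM against 2.68 to 10.7 FPKM, with 1 of the 2 tested, *Cd2*, called lower. The 5 listed neutrophil markers, among which *S100a8* held most of the sum, lay between 42.0 and 73.8 FPKM against 161 to 175 FPKM, with 2 of the 4 tested called lower. The 7 markers of mesothelial cells and fibroblasts lay between 10.6 and 26.1 FPKM against 2.04 to 12.04 FPKM, with none of the 3 tested called in limma and 1 at an unadjusted p under 0.05. Like *Bcl2*, all 5 mast cell markers, 3 of the 4 B cell markers, both tested T cell markers, 3 of the 5 tested large peritoneal macrophage markers and 2 of the 4 tested neutrophil markers met the condition for testing through the control group alone, so the counts called lower were in part set by it. No marker in these lists was at 0 in all 6 libraries. The part of these cells in the difference of *Bcl2* was not tested, and in bulk RNA fewer cells of a type and less RNA per cell cannot be told apart.

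**Figure D4:**
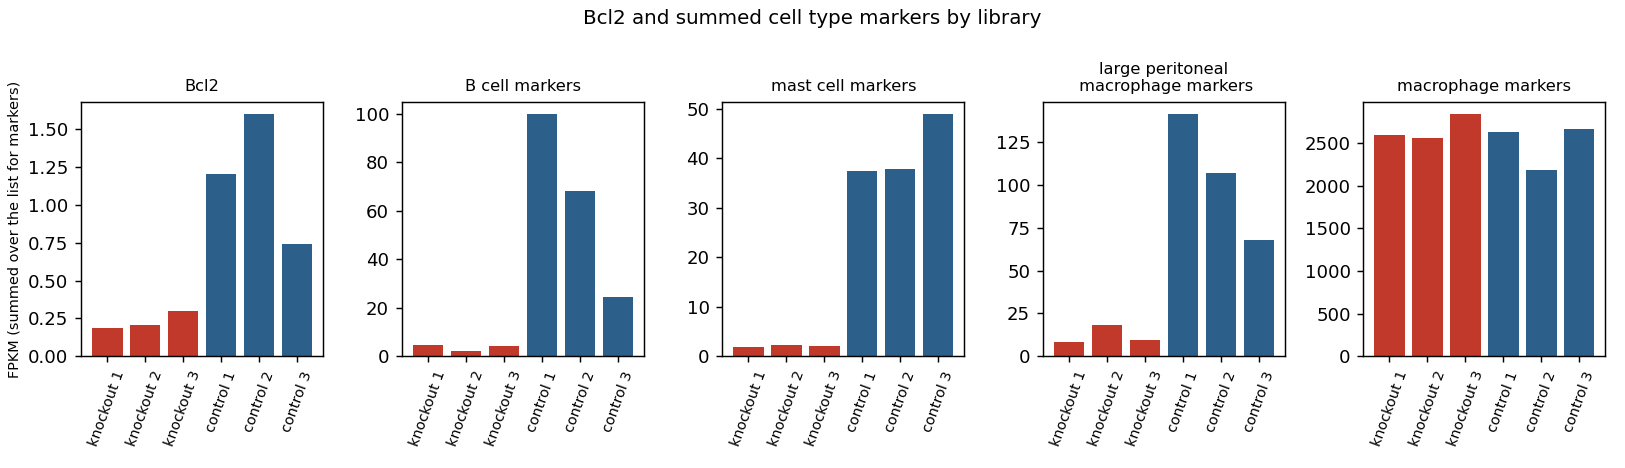
FPKM of *Bcl2* and summed FPKM of the B cell, mast cell, large peritoneal macrophage and macrophage marker lists in each library (knockout in red, control in blue, linear axes from 0). *Bcl2* and the first 3 marker sums are lower in every knockout library than in every control library, while the sum of the macrophage markers overlaps between the groups.

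Within the control group the highest library differed between *Bcl2* and these lists. Control library 2 had the most *Bcl2*, control library 1 had the most B cell and large peritoneal macrophage markers, and control library 3 had the most mast cell markers. Control library 3 had the least *Bcl2* and the least B cell, large peritoneal macrophage and T cell markers. Mast cell markers were lowest in control library 1 and neutrophil markers in control library 2. The 3 tested genes whose log2(FPKM + 1) followed that of *Bcl2* most closely over the 6 libraries were *Mmd* (Pearson r = 0.998), *Srsf5* (0.997) and *Dapp1* (0.996). *Mmd* ran from 2.92 to 3.04 FPKM in the knockout libraries and from 4.62 to 7.35 FPKM in the controls and was called lower (limma, adjusted p = 0.0342). *Srsf5*, a splicing factor, ran from 108 to 110.3 against 129 to 147 FPKM (0.113), and *Dapp1*, an adaptor in B cell receptor signalling, from 1.02 to 1.10 against 1.64 to 2.40 FPKM (0.0563). These correlations share the same 6 libraries and are given as a description.

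*Bcl2l1*, the gene of BCL-XL, measured 11.5, 13.2 and 7.18 FPKM in knockout libraries 1 to 3 and 3.85, 4.57 and 7.34 FPKM in control libraries 1 to 3. Knockout libraries 1 and 2 lay above every control, whereas knockout library 3 and control library 3 were nearly level, so that the groups overlapped. The mean was 10.7 ± 3.13 against 5.26 ± 1.84 FPKM (SD, n = 3 each), which is 2.03 times the control mean. On the log2 scale this was a difference of 0.90 ± 0.27 (SE; 95% interval from 0.26 to 1.54), which did not pass in limma (adjusted p = 0.0887). Omitting control library 3 moved it to 1.13 (limma, adjusted p = 0.0276), and this was the only 1 of 12 alternatives in which it passed. Reads of the long, protective form (BCL-XL) and the short form (BCL-XS) are counted on the same gene and are not separated in these values.

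*Mcl1*, whose short-lived protein is a main survival factor of myeloid cells, had the smallest difference of the 10 members. It was at 91.1, 90.9 and 88.3 FPKM across the knockouts, and the controls held 77.4, 114.7 and 86.3 FPKM. The knockout libraries lay inside the range of the controls, and the log2 fold change was -0.02 (limma, adjusted p = 0.944, 95% interval from -0.41 to 0.37). Its sign turned to 0.12 after rescaling by the median of ratios and to 0.14 without control library 2.

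*Bcl2a1b* and *Bcl2a1d*, copies of A1, which NF-κB induces in activated myeloid cells, held between 92.4% and 94.2% of the summed FPKM of the survival members. *Bcl2a1b* was at 975, 836 and 1007 FPKM across the knockouts, and the controls held 698, 1026 and 945 FPKM. *Bcl2a1d* was at 505, 433 and 539 FPKM across the knockouts, and the controls held 333, 504 and 501 FPKM. In both genes control library 1 was the lowest and the other libraries overlapped. The log2 fold changes were 0.09 (limma, adjusted p = 0.763, 95% interval from -0.32 to 0.51) and 0.16 (limma, adjusted p = 0.62, 95% interval from -0.30 to 0.62), and without control library 1 they turned to -0.072 and -0.036.

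The copies of A1 differ so little in sequence that reads of one can match another. In the transcripts of GENCODE M21 (GRCm38), the coding sequences of *Bcl2a1b*, *Bcl2a1d* and *Bcl2a1a* are each 519 bases long. *Bcl2a1b* and *Bcl2a1d* differ at 6 of these bases (98.8% identical), *Bcl2a1b* and *Bcl2a1a* at 11, and *Bcl2a1d* and *Bcl2a1a* at 7. The coding bases 1 to 150, which hold 7 of the 12 positions at which the copies are not all alike, are shown because no other window of this length holds more of them. Capitals mark those positions.
Bcl2a1b: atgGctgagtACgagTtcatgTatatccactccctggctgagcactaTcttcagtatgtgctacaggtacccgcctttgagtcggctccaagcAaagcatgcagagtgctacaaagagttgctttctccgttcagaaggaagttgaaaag
Bcl2a1d: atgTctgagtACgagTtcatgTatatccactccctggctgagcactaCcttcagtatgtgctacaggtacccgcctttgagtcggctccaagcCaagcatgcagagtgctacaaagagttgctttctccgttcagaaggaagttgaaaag
Bcl2a1a: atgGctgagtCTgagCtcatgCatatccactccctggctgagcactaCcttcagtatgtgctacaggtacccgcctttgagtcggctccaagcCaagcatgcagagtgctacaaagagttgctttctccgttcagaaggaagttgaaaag

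Of the stretches of 100 bases in each transcript, 31.1% of those of *Bcl2a1b*, 54.7% of those of *Bcl2a1d* and 43.5% of those of *Bcl2a1a* occur unchanged in another of these copies. For stretches of 50 bases these shares were 57.6%, 79.5% and 67.7%. How the authors counted reads that match several copies is not given in the sources used here, so the values of single copies are uncertain. *Bcl2a1a*, which is no member, was at 145, 105 and 172 FPKM across the knockouts, and the controls held 151, 204 and 209 FPKM (limma: adjusted p = 0.247 at a log2 fold change of -0.43). The ratio of *Bcl2a1b* to *Bcl2a1a* in FPKM was 6.72, 7.98 and 5.85 in the knockout libraries and 4.62, 5.02 and 4.51 in the controls, so that every knockout library was above every control. The ratio of *Bcl2a1b* to *Bcl2a1d* lay between 1.87 and 1.93 in the knockout libraries and between 1.88 and 2.10 in the controls and overlapped. Both ratios were chosen with the values known and are descriptions. *Bcl2a1c*, the remaining copy in the table, stayed between 0.05 and 0.64 FPKM.

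Among the BH3-only genes, *Bcl2l11*, whose product BIM binds all survival members, was at 4.42, 3.01 and 5.09 FPKM across the knockouts, and the controls held 3.71, 7.40 and 10.95 FPKM. Control library 1 fell among the knockout libraries and the other controls lay above them. The knockout mean was 4.17 ± 1.06 FPKM and the control mean 7.35 ± 3.62 FPKM (SD, n = 3 each), and the difference of -0.61 ± 0.34 (SE) on the log2 scale did not pass (limma, adjusted p = 0.282). With 1 library omitted it ran from -0.98 (control library 1, adjusted p = 0.0532 in limma) to -0.30 (control library 3, 0.501).

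*Pmaip1*, whose product NOXA binds MCL1 and A1, was at 1.86, 1.02 and 2.32 FPKM across the knockouts, and the controls held 1.98, 4.98 and 3.69 FPKM. Knockout library 3 was above control library 1 and the other knockout libraries were below every control. The mean was 1.73 ± 0.660 against 3.55 ± 1.51 FPKM (SD, n = 3 each), and limma gave an adjusted p of 0.169 at a log2 fold change of -0.71 ± 0.29 (SE), which ran from -0.99 to -0.48 on omitting control library 1 or 2. *Bbc3*, whose product PUMA is induced by p53, was at 1.19, 1.36 and 1.53 FPKM across the knockouts, and the controls held 0.936, 1.17 and 1.64 FPKM. The groups overlapped throughout, and its log2 fold change was 0.08 (limma, adjusted p = 0.758, 95% interval from -0.27 to 0.43).

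The differences of the pore formers had opposite signs, and neither passed. *Bax* was at 89.3, 85.3 and 100.5 FPKM across the knockouts, and the controls held 100.9, 101.8 and 158 FPKM. Every knockout library was below every control, although knockout library 3 and control libraries 1 and 2 were nearly level. The log2 fold change was -0.36 (limma, adjusted p = 0.282, 95% interval from -0.82 to 0.11). It was -0.15 without control library 3 and -0.21 after rescaling by the median of ratios. *Bak1* was at 62.0, 72.9 and 63.5 FPKM across the knockouts, and the controls held 64.3, 39.5 and 49.7 FPKM. Control library 1 lay among the knockout libraries, and the log2 fold change was 0.39 (limma, adjusted p = 0.233, 95% interval from -0.06 to 0.83), or 0.22 without control library 2. The ratio of *Bax* to *Bak1* in FPKM was 1.44, 1.17 and 1.58 in the knockout libraries and 1.57, 2.57 and 3.18 in the controls, with control library 1 inside the knockout range.

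The summed FPKM of the 5 survival members was 1582, 1373 and 1642 in the knockout libraries and 1113, 1650 and 1540 in the controls. That of the 5 death members was 159, 164 and 173 in the knockout libraries and 172, 155 and 224 in the controls. The groups overlapped in both sums. The ratio of the survival sum to the death sum was 9.29 ± 0.803 in the knockout libraries and 8.0 ± 2.31 in the controls (SD, n = 3 each), a difference smaller than the spread of the controls. Without the A1 copies the ratio was 0.613 against 0.560 (chosen with the values known). For the opposed pair BCL-XL and BIM, the ratio of *Bcl2l1* to *Bcl2l11* in FPKM was 2.61, 4.41 and 1.41 in the knockout libraries and 1.04, 0.618 and 0.670 in the controls. All 3 knockout libraries were above all 3 controls in this ratio. Among single genes tested, 34.1% had groups that did not overlap. Like the ratio of *Bax* to *Bak1*, this ratio was not planned and was chosen with the values known. It is given as a description, since neither gene passed the test on its own.

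Genes around the family were taken in 6 further lists of 74 genes, of which 58 were tested, 14 were below 1 FPKM in both groups and 2 were not analysed here. Of the 58, 2 were called higher and 2 lower, 6.9% in all, beside 7.31% of all genes tested. At an unadjusted p under 0.05 there were 7 of the 58 upward and 9 downward in limma, beside the 27.6% of all genes given above, and voom called 2 of the 58, *Fas* and *Gadd45b*. The plot of the lists marks the 4 called genes together with *Bcl2*.

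**Figure D5:**
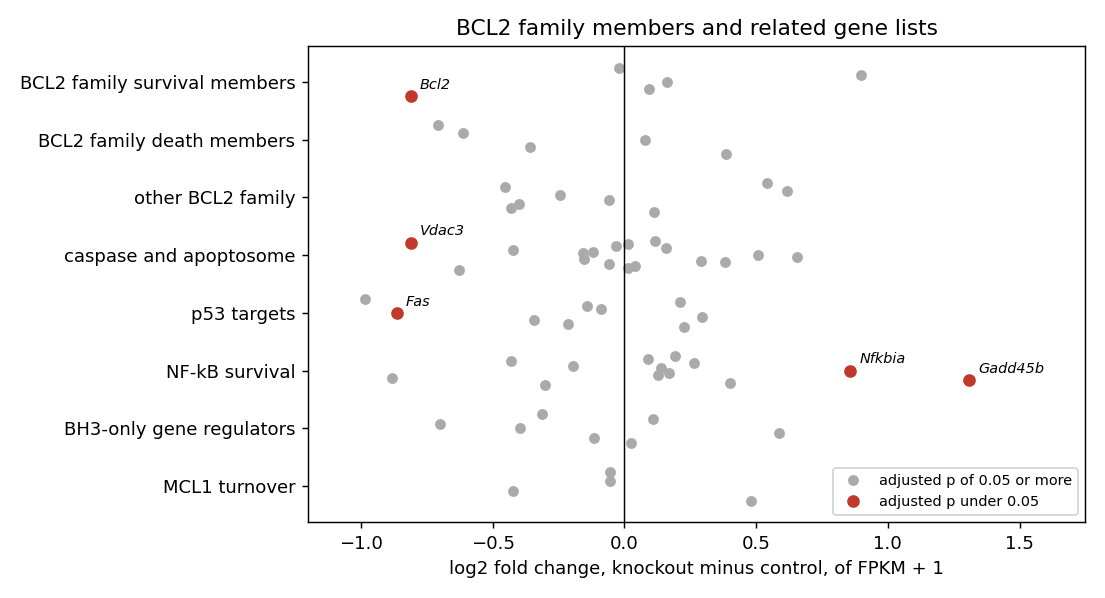
Log2 fold change of FPKM + 1, knockout minus control, for every tested gene of the 10 members and of the 6 related lists (1 point a gene, heights within a list spread for legibility). Red points passed an adjusted p of 0.05 in limma. Outside the members these are *Vdac3* and *Fas*, which are lower, and *Nfkbia* and *Gadd45b*, which are higher.

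In the rest of the BCL2 family none of 8 tested genes passed in limma and 3 had an unadjusted p under 0.05, with a median log2 fold change of -0.15. *Bid*, a BH3-only gene cut by caspase 8, came nearest. It was at 29.3, 29.9 and 22.7 FPKM across the knockouts, and the controls held 14.2, 16.6 and 22.0 FPKM, and it was named after its values were seen. Every knockout library was above every control. The difference of 0.62 on the log2 scale did not pass in limma (adjusted p = 0.0939) unless control library 3 was omitted (0.0256). *Bcl2a1a*, given above, was the most abundant gene of this list.

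In the list of caspases, the apoptosome, their inhibitors and other mitochondrial genes, 1 of 17 tested genes passed, and it was a channel gene. *Vdac3*, which encodes a channel of the outer mitochondrial membrane, fell from 107.6 ± 17.3 to 61.3 ± 12.7 FPKM (SD, n = 3 each), and limma gave an adjusted p of 0.0476 at a log2 fold change of -0.81. The fit blocked by replicate number did not call it (limma, adjusted p = 0.0622), nor did those without knockout library 1 (0.181), knockout library 2 (0.195), control library 1 (0.054) or control library 2 (0.158). It also missed the threshold with no filter (0.0722), after rescaling by the median of ratios (0.0653) and in voom (0.0685), and was called in 4 of 12 alternatives. Its relative *Vdac2*, the channel that binds BAK and the most abundant gene of this list, was at 160.5 ± 6.39 against 159.7 ± 17.1 FPKM (limma: adjusted p = 0.961 at a log2 fold change of 0.01). The median log2 fold change of the list was 0.01, beside -0.11 over all genes tested.

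Of the p53 targets, 1 of 9 tested genes passed. *Fas*, a death receptor, fell from 31.4 ± 4.66 to 16.7 ± 1.06 FPKM (SD, n = 3 each), and limma gave an adjusted p of 0.0205 at a log2 fold change of -0.86. Omitting control library 2 (adjusted p = 0.0975) or either of knockout libraries 1 and 2 (0.0931 and 0.113) ended the call. *Cdkn1a*, a cell cycle inhibitor and the most abundant of the list, was at 357 ± 30.03 against 292 ± 37.9 FPKM (limma: adjusted p = 0.233 at a log2 fold change of 0.29). *Trp53inp1*, a stress protein induced by p53, differed by -0.99 on the log2 scale and missed the threshold in limma (adjusted p = 0.0516). It was called in 3 of 11 alternatives, among them the fit blocked by replicate number (limma, 0.033), a pairing not established here. Without knockout library 1 the adjusted p was 0.185.

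Of the NF-κB subunits, regulators and targets linked to survival, 2 of 13 tested genes passed, both upward. Of all genes tested, 2.57% were called higher. At an unadjusted p under 0.05 in limma there were 3 upward and 1, *Ier3*, downward, beside 9.93% and 17.7% of all genes tested. *Gadd45b*, a stress gene that restrains JNK signalling, rose from 55.6 ± 12.1 to 140 ± 35.2 FPKM (SD, n = 3 each), and limma gave an adjusted p of 0.0267 at a log2 fold change of 1.31. It was not called with no filter (adjusted p = 0.052) nor on omitting control library 2 (0.11) or either of knockout libraries 1 and 2 (0.11 and 0.122). *Nfkbia*, the gene of IκBα, rose from 215 ± 32.1 to 391.5 ± 71.5 FPKM (SD, n = 3 each), and limma gave an adjusted p of 0.0355 at a log2 fold change of 0.86. It missed the threshold after rescaling by the median of ratios (adjusted p = 0.0525 from limma), in voom (0.0545), with no filter (0.0634) and without knockout library 1 (0.141), knockout library 2 (0.146) or control library 2 (0.137). *Ier3*, an early response gene with the highest mean of this list over all 6 libraries, though not within the knockout group, was at 237 ± 34.7 against 477 ± 228 FPKM (limma: adjusted p = 0.176 at a log2 fold change of -0.88).

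None of 7 genes in the list of BH3-only gene regulators and stress response genes passed in limma, with 2 at an unadjusted p under 0.05. Of 4 tested genes of MCL1 turnover none passed, with 1 at an unadjusted p under 0.05. *Foxo3*, whose product drives *Bcl2l11*, was at 1.57 ± 0.476 against 3.23 ± 1.18 FPKM (SD, n = 3 each), and its adjusted p in limma was 0.101. The fit blocked by replicate number (limma, 0.0319), a pairing not established here, was the only 1 of 11 alternatives that called it. Without knockout library 2 the adjusted p was 0.332. *Atf4*, a factor of the stress response and the most abundant regulator, differed by 0.03 on the log2 scale (limma, adjusted p = 0.98). *Huwe1*, a ubiquitin ligase of MCL1 and the most abundant of its list, differed by -0.06 (limma, adjusted p = 0.839).

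Some members overlap other genes on the chromosome in the RefSeq annotation. The overlapping genes were *Acoxl* for *Bcl2l11*, *Ggnbp1* for *Bak1*, *Gm10634* for *Bcl2a1d*, *Gm37053* and *Mir3473f* for *Bcl2*, and *Cox4i2* and *Gm32211* for *Bcl2l1*. Those in the deposited table, *Acoxl*, *Ggnbp1*, *Gm10634* and *Gm37053*, were at most at 0.137 FPKM in any library. Whether strand was used in the counting is not given in the sources used here.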

How the data were processed

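RNA-seq of 6 PEM libraries, 3 per group by their titles, was analysed. The authors deposited FPKM per gene and library, and mean read counts per group divided by DESeq2 size factors (a signal). The deposited fold (ratio), log2 fold, p-value and q-value columns of the authors' own comparison were not used. The submitters' notes name mm9, and the aligner, counting and annotation are not given in the sources used here. The table lists genes with an overall mean above 1. Solving FPKM and group means together gave back whole reads, within 0.01 reads. Genes with a mean of at least 1 FPKM in one group were tested with limma 3.58.1 in R 4.3.3 (two-sided, moderated with trend, no block) on log2(FPKM + 1), with Benjamini-Hochberg adjustment and a threshold of 0.05. The code was tested on simulated data. Same-numbered libraries of the groups had correlated deviations (0.109, 0.11 and 0.304, against -0.332 to 0.291 for other numbers, the highest being knockout 2 with control 1), so a fit with the number as a block was made, the pairing resting on these correlations alone. Further alternatives were a pseudocount of 0.1, no filter, a filter of 5 FPKM, rescaling by the median of ratios, each library left out, and voom on the recovered reads, which was chosen after seeing the data. For 3 against 3 an exact permutation test cannot go below 0.1 and was not used. The members and lists were chosen with earlier results of these data known. All members were named, and from each list the genes past the threshold and the most abundant one. *Bid*, *Trp53inp1* and *Foxo3* were named after their values were seen. 1 gene of the marker lists is not reported here and was left out of its list.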

Additional observations from a re-analysis of the deposited data

How the results depend on the processing

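The number of genes called by limma was 660 (232 higher, 428 lower). It was 436 (255 lower) with a filter of 5 FPKM, 141 were higher with no filter, and 352 were higher with the replicate block. After rescaling by the median of ratios, which moved the median log2 fold change from -0.11 to 0.02, the split was 342 higher to 322 lower, and in voom it was 298 to 291. Leaving out 1 library gave 8 to 1278 genes, 1 to 513 higher and 7 to 765 lower, the number being 8 when control library 2 was omitted, 30 for knockout library 1, 63 for knockout library 2 and 1278 for control library 3. Of the members, 1 was called. With the filter of 5 FPKM, under which *Bcl2* was not tested, it was 0 in limma (1 at an unadjusted p under 0.05), and with 1 library left out it was 0 to 2, with 0 to 1 higher and 0 to 1 lower (2 to 5 at an unadjusted p under 0.05). Of the list genes 4 were called, against 1 lower and 0 higher with no filter (19 at an unadjusted p under 0.05 in limma), 2 (1 higher, 1 lower) after rescaling or in voom, and 0 to 9 (0 to 3 higher, 0 to 6 lower) with 1 library left out. Of the 10 members, *Timd4*, *Lyz2*, *Vdac3*, *Fas*, *Gadd45b*, *Nfkbia*, *Bcl2a1a*, *Bid*, *Trp53inp1* and *Foxo3*, the replicate block changed the calls of *Vdac3*, *Trp53inp1*, *Foxo3* and *Timd4* and no other call.

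With 1 library left out the log2 fold change ran from -0.072 to 0.205 in *Bcl2a1b*, from -0.036 to 0.263 in *Bcl2a1d* and from -0.022 to 0.201 in *Bbc3*, each negative only without control library 1, and from -0.142 to 0.139 in *Mcl1*, positive only without control library 2. The sign of *Mcl1* also turned after rescaling (0.123) and in voom (0.125). The cause was not tested. Without the A1 copies, chosen after seeing the data, the mean survival sum was 101 FPKM in the knockout and 99.2 FPKM in the control group, and its ratio to the death sum was 0.613 and 0.56. After rescaling the mean death sums were level at 173.01 FPKM in the knockout and 173.14 FPKM in the control group (165 and 184 before), and the mean survival sums were 1606 and 1349 FPKM (1532 and 1435 before). The planned count models were not run, because the deposited values per library are FPKM. The recovered whole reads would have allowed them, and voom was run on those reads instead. The planned sum without *Mcl1* was not run, because *Mcl1* held at most 6.95% of the survival sum. *Bcl2*, at 58 to 89 reads per knockout library, was the member with the fewest reads in each of these libraries. In control libraries 1 and 2 *Bbc3* had fewer, with 148 and 183 reads.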
